A study of Bos taurus with 8 samples.

Results

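The genes described here are those of the unfolded protein response and the integrated stress response, 34 genes chosen by name and measured in the endometrium of cows given methylglyoxal or the fluid without it. They fall into 5 sensors and transcription factors, 17 chaperones and quality control factors of the endoplasmic reticulum (ER), and 12 targets of the transcription factor ATF4. Of the 34 genes, 33 had a probe under their symbol, 76 probes in all, out of 15689 gene symbols with a probe on the array, and 32 genes were measured well enough to be tested. PDIA6, a disulfide isomerase gene, was not analysed here, since no probe was found under its symbol, and ERN1 was not tested because its probe stood well above background on 1 of 4 arrays in each group. None of the 32 genes passed the multiple-testing threshold.

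The 5 mM group was 4 cows whose uterine horns each received 25 mL of fluid with 5 mM methylglyoxal on day 1, where day 0 is the day of standing estrus. The 0 mM group was 4 cows given 25 mL with 0 mM methylglyoxal on the same day. All 8 cows were biopsied on day 7 in the horn ipsilateral to the corpus luteum, each biopsy came from a separate cow, and its RNA went to its own one-colour Agilent array. The labels give neither breed nor age, and do not name the fluid in which methylglyoxal was given. Methylglyoxal is a small dicarbonyl compound that forms during glycolysis and modifies arginine, lysine and cysteine side chains of proteins. In a biopsy of mixed cells, fewer cells of a type and less RNA per cell cannot be told apart.

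The unfolded protein response is started by sensors in the ER membrane when unfolded protein builds up in the ER. The kinase and ribonuclease IRE1, encoded by ERN1, splices the XBP1 mRNA, the factor ATF6 is cut loose to enter the nucleus, and the kinase PERK, encoded by EIF2AK3, phosphorylates the translation factor eIF2alpha. XBP1 and ATF6 induce chaperone and degradation genes. Phosphorylated eIF2alpha is also the shared step of the integrated stress response, which slows translation in general while more ATF4 protein is made, and ATF4 then induces genes of amino acid supply and of the later stress response. Endometrial glands secrete protein in quantity in the luteal phase, and secretory cells rely on these chaperones. Much of this signalling runs through splicing, cleavage, phosphorylation and translation, which a probe for total mRNA does not read.

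Each probe is a 60-base oligonucleotide, and a level is the log2 of its signal over the 75th percentile of that array, so levels are not compared between genes. Several probes were available for some members, and for 20 members over 1 probe was tested. The sequences below belong to 3 members whose tested probes differed in the sign of their difference. They are dimmer probes whose values are set beside those of the brightest probe in the results. They are given 5′ to 3′ as deposited, on the build HGSC Btau_3.1. The ATF4 probes lie at chr5:118119580-118119639 and chr5:118119912-118119971 on the plus strand, and both have a GC content of 45%. The HSPA5 probes lie on the minus strand at chr11:99543579-99543638, at chr11:99544070-99544547, a span longer than the probe, and at chr11:99546701-99546760, and their GC contents are 45%, 45% and 55%. The CANX probes have no position in the files, and their GC contents are 45% and 35%.
ATF4 probe a: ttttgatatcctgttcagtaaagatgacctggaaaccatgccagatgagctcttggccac
ATF4 probe b: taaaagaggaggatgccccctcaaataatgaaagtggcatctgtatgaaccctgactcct
HSPA5 probe a: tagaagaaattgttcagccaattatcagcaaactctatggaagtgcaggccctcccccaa
HSPA5 probe b: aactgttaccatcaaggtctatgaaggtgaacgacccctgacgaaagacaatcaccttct
HSPA5 probe c: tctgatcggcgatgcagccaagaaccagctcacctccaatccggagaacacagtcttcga
CANX probe a: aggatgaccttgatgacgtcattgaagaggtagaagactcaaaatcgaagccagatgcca
CANX probe b: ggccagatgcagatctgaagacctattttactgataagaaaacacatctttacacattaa

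Between 68.3% and 73.2% of the 43653 noncontrol probes were well above background on each array, and no spot was saturated. The 75th percentile of the signal lay between 1032 and 1456 intensity units. Markers of luminal and glandular epithelium, the cells that line the uterus and its glands, had a mean of -3.26 on 5 mM replicate 1 relative to the mean of the 8 arrays, against 0.29 to 0.87 on the other 7 arrays. Markers of smooth muscle, which lies below the endometrium, had a mean of 2.78 on that array, 1.83 on 5 mM replicate 3 and 1.34 on 0 mM replicate 1, against -1.64 to -0.92 on the other 5 arrays. That library thus stands apart from the rest, and the counts and the member differences that it moves most are given with and without it below.

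The comparison asked which of these genes differed on day 7 between cows given 5 mM methylglyoxal and cows given 0 mM. With limma and Benjamini-Hochberg adjustment over all tested probes, 0 of the 32 members had an adjusted p under 0.05, and the background was 0% of 31108 probes. The smallest adjusted p was 0.913, among the members as among all probes. At an unadjusted p under 0.05 there was 1 member, TRIB3, against a background of 1.91%. For 0 members did the values of the groups not overlap, against a background of 1.54%. Of the 32 members, 6 were higher and 26 were lower in the 5 mM group, with a median log2 difference of -0.14 (5 mM minus 0 mM), while over all tested probes 53.1% were higher and the median was 0.021. Scaling the arrays to their medians gave 11 members higher and 21 lower. Without 5 mM replicate 1 there were 14 higher and 18 lower, with a median of -0.015.

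The differences were small beside the spread between cows. For 30 of the 32 members the difference lay within 0.5 of 0 on the log2 scale, and TRIB3 and PHGDH were the exceptions. The median standard error of a member's difference was 0.24, close to the 0.245 of all tested probes. Over all 69 tested probes of the members, 19 were higher and 50 lower, with a median of -0.15. Of the 20 members with over 1 tested probe, 13 had probes of 1 sign and 7 did not (EIF2AK3, ATF4, HSPA5, HYOU1, PDIA4, CALR and CANX). The SD of a member over the 8 arrays had a median of 0.351, between 0.101 for HSPA5 and 1.53 for PHGDH, beside a median of 0.353 over all tested probes.

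**Figure D1:**
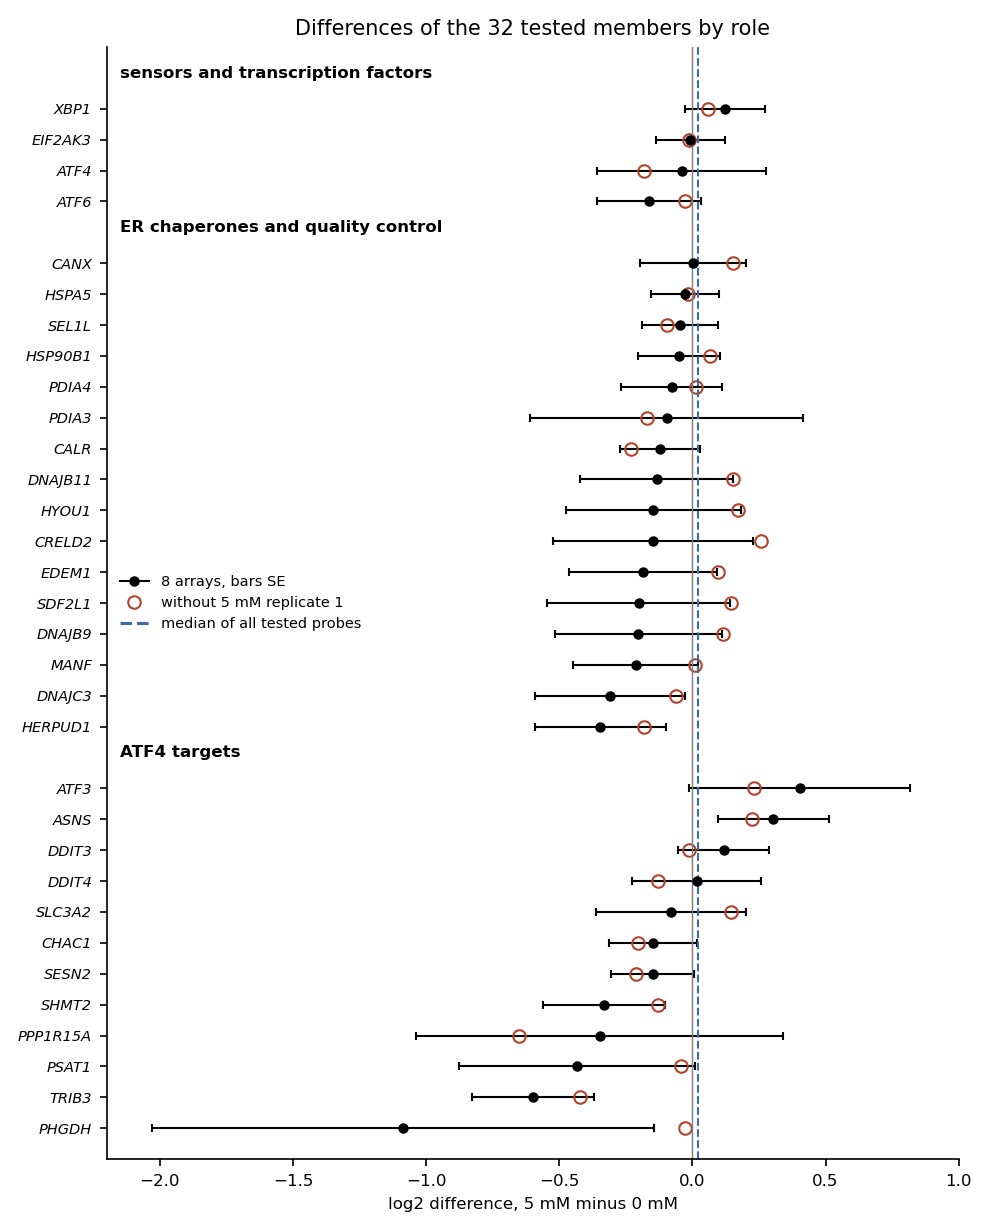
Log2 difference (5 mM minus 0 mM, x axis) of the 32 tested members, by role. Black points and bars give the difference and its SE over 8 arrays, open circles give the difference without 5 mM replicate 1, and the dashed line is the median of all tested probes (0.021). Of the 16 ER genes, 15 lay below 0 with all arrays and 6 without that array.

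The sensors and transcription factors had differences on both sides of 0. Of the 4 tested, XBP1 was higher and 3 were lower in the 5 mM group, with a median difference of -0.024 and a largest absolute difference of 0.162. None passed the adjusted or the unadjusted threshold. With scaling to the array medians 3 were higher and 1 was lower.

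XBP1, the transcription factor whose mRNA IRE1 splices, had levels of 5.54, 5.36, 5.44 and 5.07 on 5 mM replicates 1 to 4, against 5.36, 5.06, 5.20 and 5.30 on 0 mM replicates 1 to 4. The ranges of the groups overlapped widely. The difference was 0.12 ± 0.15 (SE), with a 95% interval of -0.23 to 0.47 and an unadjusted p of 0.444 in limma, and it was 0.059 without 5 mM replicate 1. Its other probes differed by 0.063 and 0.24, so the 3 XBP1 probes had the same sign. No probe here is known to tell the spliced form from the unspliced one.

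ATF6, the sensor that becomes a transcription factor when it is cut, had levels of -5.08, -4.50, -4.32 and -4.83 on the 5 mM arrays, against -4.32, -4.54, -4.56 and -4.67 on the 0 mM arrays. The 5 mM values reached lower than the 0 mM values, and their highest was close to the highest 0 mM value. The difference was -0.16 ± 0.19 (SE), and -0.029 without 5 mM replicate 1, the array with the lowest value. EIF2AK3, which encodes PERK, averaged 1.78 ± 0.044 in the 5 mM group, against 1.79 ± 0.16 in the 0 mM group (SD, n = 4 each). Its 2 tested probes gave -0.0075 and 0.12. ERN1, which encodes IRE1, was not well above background on 3 of the 4 arrays of each group, and no difference was computed.

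ATF4, the transcription factor at the centre of the integrated stress response, was read by 3 tested probes. The brightest had levels of 5.05, 4.03, 4.87 and 4.57 on the 5 mM arrays, against 4.61 and 4.74 on 0 mM replicates 1 and 4. Its spots on 0 mM replicates 2 and 3 carried the scanner's outlier mark and were left out, so the fit used 6 arrays and gave -0.040 ± 0.32 (SE), and -0.18 without 5 mM replicate 1. The 5 mM values lay on both sides of the 2 values of the 0 mM group.

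The other ATF4 probes, shown above, had values on all 8 arrays. Probe b had levels of -0.92, -1.15, -0.93 and -1.30 on the 5 mM arrays, against -1.46, -1.44, -1.38 and -1.48 on the 0 mM arrays. All 4 of its 5 mM values lay above all 4 of its 0 mM values, by 0.36 ± 0.14 (SE), which is 1 of 69 tested member probes without overlap, beside 1.54% of all probes. Its unadjusted p in limma was 0.0292 and its adjusted p 0.913, so it did not pass, and it was singled out after its values were seen. Over 19 fits its difference ranged from 0.30 to 0.44, and it was 0.31 without 5 mM replicate 1. These fits reuse the arrays on which the probe was singled out, so their shared sign is no further support. Probe a differed by 0.25 ± 0.18 (SE), with 1.41, 1.17, 1.68 and 1.00 on the 5 mM arrays, against 0.97, 1.01, 1.04 and 1.26 on the 0 mM arrays, where the groups overlapped. The sign of the ATF4 difference thus depended on the probe.

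**Figure D2:**
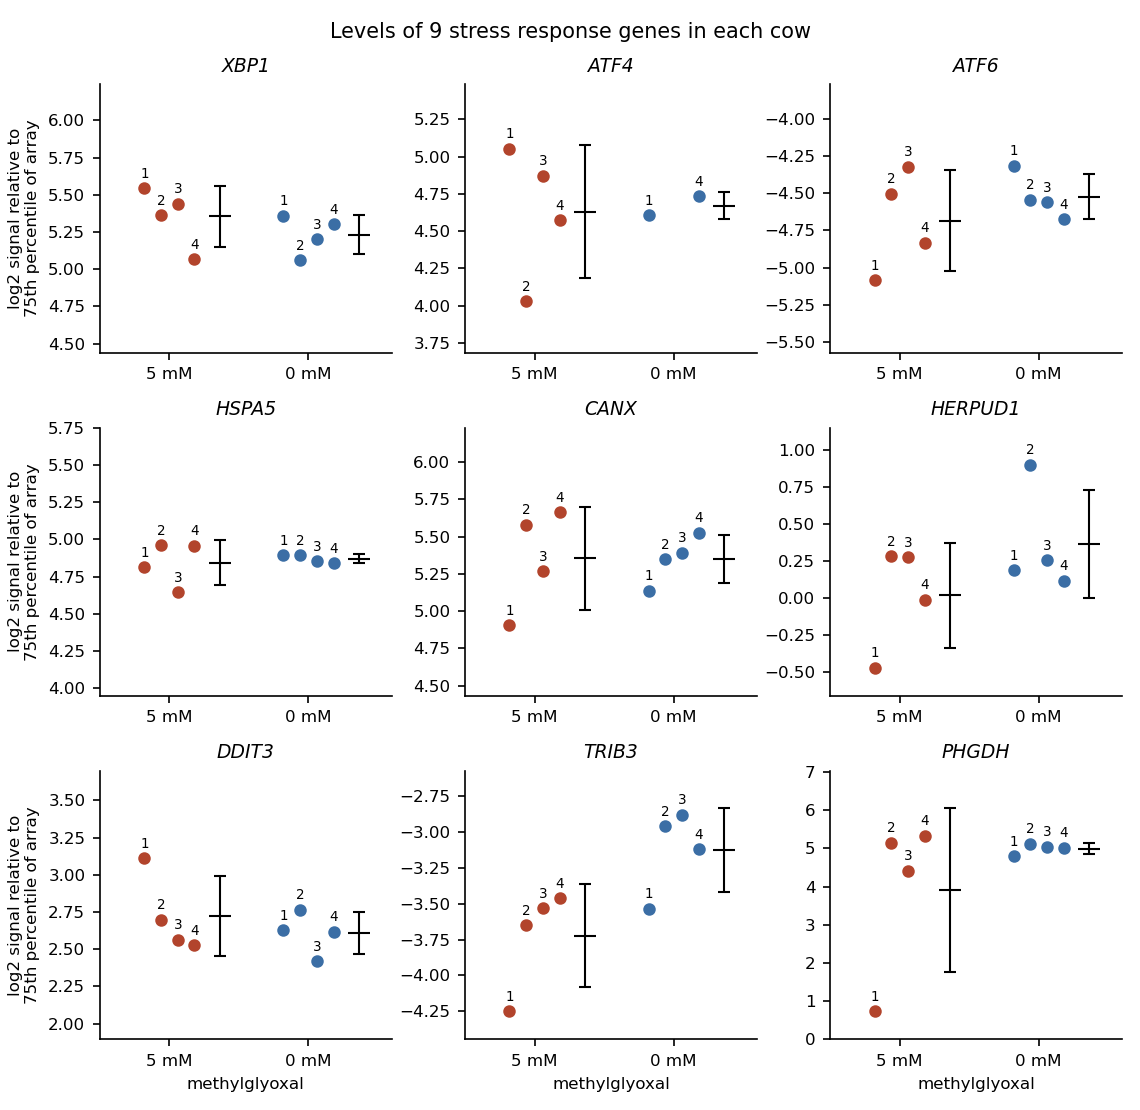
Level on each array (y axis, log2 signal over the 75th percentile of the array, with its own range for each gene) of 9 members, with 5 mM to the left of 0 mM. Points are cows with their replicate number, and bars give the mean ± SD. TRIB3 has 3 of its 4 0 mM values above all 5 mM values, and PHGDH has 1 low value, on 5 mM replicate 1.

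The ER chaperones and quality control genes lay slightly below 0 with all arrays. Of the 16 tested, 1 was higher and 15 were lower in the 5 mM group, with a median log2 difference of -0.14 and a range of -0.35 to 0.0019. None passed the adjusted or the unadjusted threshold. Without 5 mM replicate 1 the counts were 10 higher and 6 lower, with a median of 0.040. With array weights that limma estimates from the fit, 5 mM replicate 1 had a weight of 0.19, against 0.84 to 1.69 for the others. The counts were then 10 higher and 6 lower, with a median of 0.016, in a fit close to leaving that array out. Within slides the median was -0.76 on slide 1, which holds replicate 1 of each group, 0.028 on slide 2 and 0.11 on slide 3.

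HSPA5, which encodes BiP, the main ER chaperone and a usual marker of the unfolded protein response, had levels of 4.81, 4.96, 4.64 and 4.96 on the 5 mM arrays, against 4.90, 4.89, 4.86 and 4.84 on the 0 mM arrays. With this brightest probe the 0 mM values sat inside the 5 mM range, and 5 mM replicate 1 was not the lowest array. The difference was -0.027 ± 0.13 (SE), with a 95% interval of -0.32 to 0.27, and it was -0.016 without 5 mM replicate 1. HSPA5 probes a, b and c differed by -0.32 ± 0.35, -0.093 ± 0.25 and 0.028 ± 0.20 (SE). Probes b and c had their lowest values on 5 mM replicate 1, at 0.77 and -2.31, while probe a, at 2.60, did not. The differences of the 4 probes were each under their own SE.

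CANX, which encodes the lectin chaperone calnexin, had levels of 4.90, 5.58, 5.27 and 5.66 on the 5 mM arrays, against 5.14, 5.35, 5.39 and 5.53 on the 0 mM arrays. The difference of its brightest probe was 0.0019 ± 0.20 (SE), and 0.15 without 5 mM replicate 1, the array of its lowest value. The 6 other tested CANX probes were lower in the 5 mM group, by up to 0.73, with -0.34 ± 0.31 for probe a and -0.73 ± 0.49 for probe b (SE). The next brightest CANX probe differed by -0.33 ± 0.17 (SE), with an unadjusted p of 0.0878 and an adjusted p of 0.913 in limma. Its lowest value was on 5 mM replicate 2. With the mean over its probes CANX was at -0.30. CALR, which encodes calreticulin, the soluble partner of calnexin, averaged 4.67 ± 0.22 in the 5 mM group, against 4.80 ± 0.085 in the 0 mM group (SD, n = 4 each). With its brightest probe the highest value, 5.00, was on 5 mM replicate 1, and the difference was -0.12 with that array and -0.23 without it. Other CALR probes had their lowest values on that array, at -1.10, 0.65, 3.94 and -1.53. A further CALR probe, at 3.99, lay within the range of the other arrays.

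HERPUD1, which encodes an ER membrane protein of the degradation pathway, had the largest absolute difference of the ER genes. Its levels were -0.47, 0.28, 0.28 and -0.010 on the 5 mM arrays, against 0.19, 0.90, 0.26 and 0.12 on the 0 mM arrays. The lowest value was on 5 mM replicate 1 and the highest on 0 mM replicate 2, and the other 6 values of both groups lay together. The difference was -0.35 ± 0.25 (SE, unadjusted p = 0.197 in limma), and -0.18 without 5 mM replicate 1. DNAJC3, a co-chaperone of BiP that also inhibits PERK, had levels of 1.58, 2.67, 2.55 and 2.48 on the 5 mM arrays, against 2.71, 3.06, 2.38 and 2.38 on the 0 mM arrays. Its difference was -0.31 ± 0.28 (SE), and -0.062 without 5 mM replicate 1.

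The other BiP partners were low together on 1 array. DNAJB9 and DNAJB11, co-chaperones that hand substrates to BiP, HYOU1, a chaperone of the HSP70 family, and SDF2L1, a partner of DNAJB11, differed by -0.20, -0.13, -0.15 and -0.20. On 5 mM replicate 1 these 4 genes were each between 1.06 and 1.30 below their mean on the other 7 arrays. DNAJB9 was at 1.68 there, against 2.89 to 2.99 on the other 5 mM arrays and 2.51 to 3.07 on the 0 mM arrays. CRELD2 and MANF, which encode small ER-stress-induced proteins, were at 1.21 and 3.66 on that array. On the other 5 mM arrays CRELD2 lay between 2.75 and 2.92 and MANF between 4.49 and 4.62, and on the 0 mM arrays CRELD2 lay between 2.45 and 2.79 and MANF between 4.32 and 4.71. Without that array the differences were 0.12 for DNAJB9, 0.15 for DNAJB11, 0.17 for HYOU1, 0.14 for SDF2L1, 0.26 for CRELD2 and 0.011 for MANF.

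HSP90B1, the ER member of the HSP90 family, differed by -0.049, and by 0.067 without 5 mM replicate 1, where its lowest value, 4.05, lay. The disulfide isomerase gene PDIA4 differed by -0.078, and by 0.013 without that array. PDIA3, another disulfide isomerase gene, was low on replicate 2 of both groups, at 0.61 for 5 mM and 0.26 for 0 mM. Its remaining values lay at 1.76 to 2.09 for 5 mM, against 1.81 to 2.35 for 0 mM. Both low arrays share slide 2 with 0 mM replicate 3, where PDIA3 was at 2.21. The difference was -0.097 ± 0.51 (SE), and -0.17 without 5 mM replicate 1, and PDIA3 was read by a single probe.

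EDEM1, which marks misfolded glycoproteins for disposal, differed by -0.19 with its brightest probe, by -0.27 with another and by -0.88 with the third, which was well above background on 2 of the 5 mM arrays, against 4 of the 0 mM arrays. Without 5 mM replicate 1 the brightest probe differed by 0.094. SEL1L, the scaffold of the ER ubiquitin ligase HRD1, differed by -0.046, and by -0.097 without 5 mM replicate 1, which was within the range of the other arrays for this gene.

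The ATF4 targets had differences on both sides of 0. Of the 12 tested, 4 were higher and 8 were lower in the 5 mM group, with a median log2 difference of -0.15 and a range of -1.09 to 0.40. TRIB3 was the 1 target at an unadjusted p under 0.05, and none passed the adjusted threshold. Without 5 mM replicate 1 the counts were 3 higher and 9 lower, the median was -0.085, and no target had an unadjusted p under 0.05.

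TRIB3, which encodes a pseudokinase induced by ATF4 and CHOP that binds the kinase AKT, had levels of -4.25, -3.65, -3.53 and -3.46 on the 5 mM arrays, against -3.53, -2.96, -2.88 and -3.12 on the 0 mM arrays. Of the 0 mM values, 3 lay above all 5 mM values, and 0 mM replicate 1 lay among them. The means were -3.72 ± 0.36 in the 5 mM group, against -3.12 ± 0.29 in the 0 mM group (SD, n = 4 each). The difference was -0.60 ± 0.23 (SE), 0.66 of the 0 mM signal on the linear scale, with a 95% interval of -1.12 to -0.072, an unadjusted p of 0.0306 and an adjusted p of 0.913 in limma. The probe lies on chromosome 13, from 61470530 to 61470589 on the minus strand of HGSC Btau_3.1. The 2 other TRIB3 probes were well above background on at most 1 array of a group and gave no test.

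Over 20 fits, which share arrays and so give no separate support, the TRIB3 difference ranged from -0.74 to -0.30. It was negative in each and had an unadjusted p under 0.05 in 15 of them. It was -0.42 without 5 mM replicate 1 (unadjusted p = 0.0549 in limma), and -0.30 with normexp background correction (unadjusted p = 0.158 in limma). The unadjusted p was above 0.05 as well without 0 mM replicate 2, 3 or 4, at 0.0748, 0.0801 and 0.0598 in limma.

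DDIT3, which encodes CHOP, the factor of the late stress response, had levels of 3.11, 2.70, 2.56 and 2.53 on the 5 mM arrays, against 2.63, 2.77, 2.42 and 2.62 on the 0 mM arrays. Except for 5 mM replicate 1, the highest of the 8, the groups covered a like range. The difference was 0.12 ± 0.17 (SE), with a 95% interval of -0.28 to 0.51, and -0.011 without 5 mM replicate 1. The second DDIT3 probe differed by 0.15 ± 0.16 (SE).

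ATF3, a stress-induced transcription factor, had the largest positive difference of all members, at 0.40 ± 0.41 (SE). Its levels were -1.03, -2.73, -1.04 and -1.40 on the 5 mM arrays, against -1.89, -1.33, -2.29 and -2.28 on the 0 mM arrays. The highest of the 8 values was on 5 mM replicate 1 and the lowest on 5 mM replicate 2. The difference was 0.23 without 5 mM replicate 1 (unadjusted p = 0.612 in limma), and 0.80 without 5 mM replicate 2 (unadjusted p = 0.0221 and adjusted p = 0.667 in limma). PPP1R15A, which encodes GADD34, the subunit that brings a phosphatase to eIF2alpha, was also low on 5 mM replicate 2, at -6.50, against -4.30 to -3.73 on the other 5 mM arrays and -5.20 to -3.37 on the 0 mM arrays. Its probe was well above background on 3 of the 5 mM arrays, against 4 of the 0 mM arrays. PPP1R15A differed by -0.35 ± 0.69 (SE), by 0.27 without 5 mM replicate 2, by -0.65 without 5 mM replicate 1, and by -0.81 with slide as a block (unadjusted p = 0.0118 and adjusted p = 0.841 in limma).

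PHGDH, the first enzyme of serine synthesis, had levels of 0.73, 5.15, 4.42 and 5.33 on the 5 mM arrays, against 4.80, 5.12, 5.04 and 5.01 on the 0 mM arrays. PHGDH was read by a single probe. On 5 mM replicate 1 it was 4.25 below its mean on the other 7 arrays, and the 7 others lay within 1 log2 unit. The difference was -1.09 ± 0.94 (SE, unadjusted p = 0.282 in limma), and -0.027 ± 0.23 (SE) without that array. That is the array with the epithelium marker mean of -3.26, and the part of tissue makeup in the PHGDH value was not tested.

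PSAT1, the next enzyme of serine synthesis, had levels of 3.92, 5.68, 4.91 and 5.87 on the 5 mM arrays, against 4.94, 5.46, 5.97 and 5.75 on the 0 mM arrays. It too was lowest on 5 mM replicate 1, also with its second probe, at -4.12 there against -2.93 to -1.37 on the other 7 arrays. The difference was -0.43 ± 0.44 (SE), and -0.041 without that array. SHMT2, which splits serine in mitochondria, was at 0.30 on 5 mM replicate 1, against 0.82 to 1.31 on the other 5 mM arrays and 1.21 to 1.28 on the 0 mM arrays. Its difference was -0.33 ± 0.23 (SE), and -0.13 without that array.

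ASNS, which makes asparagine and is a common readout of ATF4, went the other way. Its levels were -0.55, -0.68, -1.22 and -0.71 on the 5 mM arrays, against -1.41, -1.16, -0.73 and -1.07 on the 0 mM arrays. Of the 5 mM values, 3 lay above all 0 mM values and replicate 3 lay among them. The difference was 0.30 ± 0.21 (SE, unadjusted p = 0.182 in limma), with a 95% interval of -0.18 to 0.78, and it was 0.22 without 5 mM replicate 1. SLC3A2, the heavy chain of several amino acid transporters, differed by -0.081, and by 0.15 without 5 mM replicate 1.

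The remaining targets differed by less than their SE over all 8 arrays. DDIT4, an inhibitor of mTORC1 signalling, differed by 0.016 ± 0.24 (SE) and had its lowest value, 3.04, on 5 mM replicate 3 and its highest, 4.07, on 5 mM replicate 1, without which it differed by -0.13. SESN2, a leucine sensor of the same pathway, differed by -0.15 ± 0.16 (SE), and by -0.21 without 5 mM replicate 1. CHAC1, which breaks down glutathione, differed by -0.15 ± 0.17 (SE), by -0.20 without 5 mM replicate 1, and was well above background on 2 of the 5 mM arrays, against 3 of the 0 mM arrays.

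**Figure D3:**
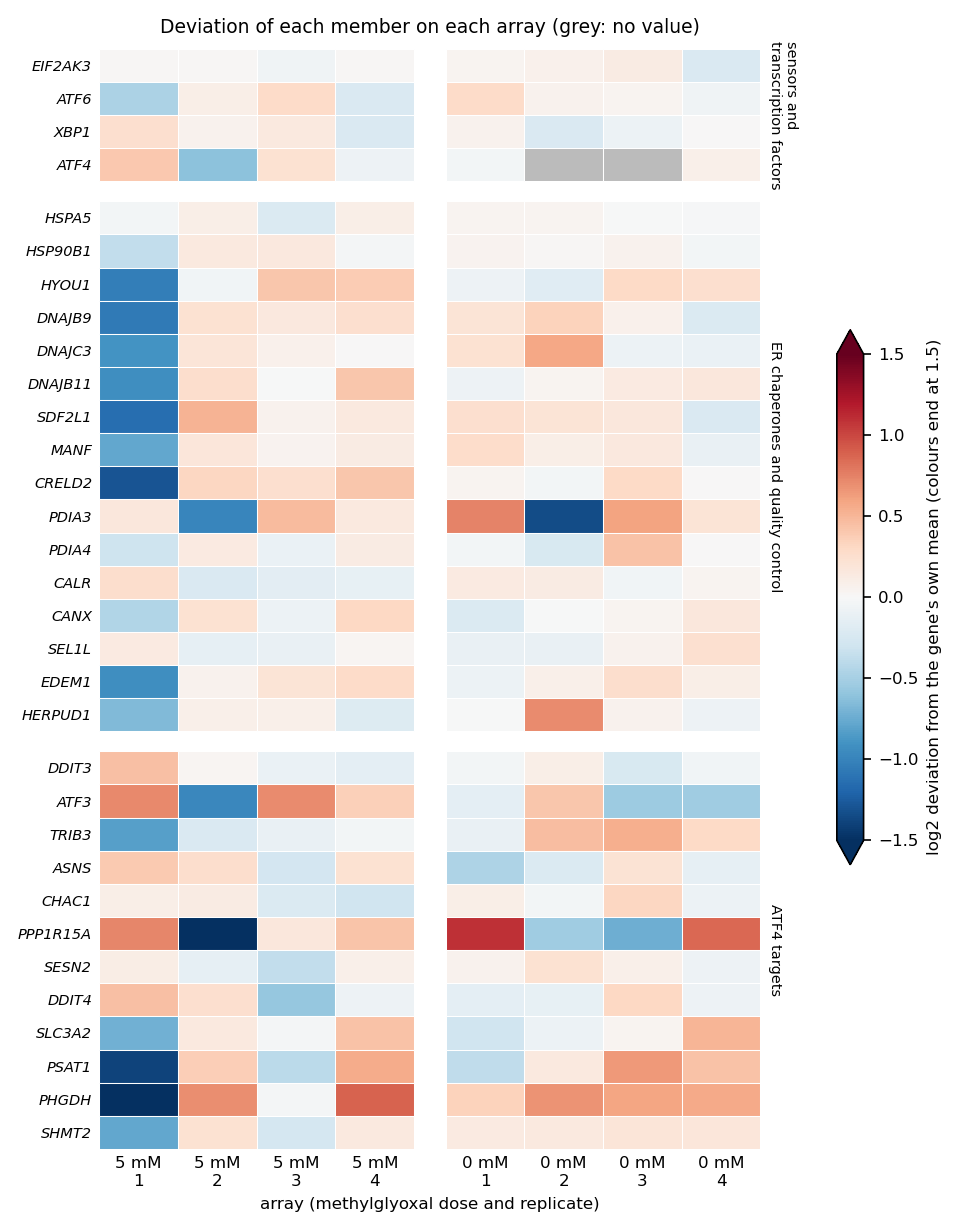
Deviation of each tested member from its own mean over the arrays (colour, log2, rows grouped by role) on the 4 arrays of the 5 mM group, at the left, and the 4 of the 0 mM group. Grey marks values left out by the scanner's outlier mark. Each member is shown by its brightest probe. On 5 mM replicate 1, 12 of the 16 ER genes had their lowest value, while DDIT3, ATF3, ASNS and DDIT4 had their highest.

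The array of 5 mM replicate 1 held the lowest value of 18 of the 32 members and the highest of 7. Each member is counted here by its brightest probe. Of all 30839 tested probes with a value on each array, 8688 were lowest and 10477 highest there. By role, 12 of the 16 ER genes were lowest there and 1, CALR, was highest, though dimmer CALR probes were lowest there. Of the 12 ATF4 targets, 5 were lowest (TRIB3, SLC3A2, PSAT1, PHGDH and SHMT2) and 4 were highest (DDIT3, ATF3, ASNS and DDIT4). The second probes of DDIT3 and DDIT4 were not highest there, at -0.022 and 3.63. Of the 4 sensors and transcription factors, ATF6 was lowest and XBP1 and ATF4 were highest. The ER genes lay a median of 0.83 below their mean on the other 7 arrays, while over all these probes the median deviation was 0.075.

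The mean of the ER genes, relative to the mean of the 8 arrays, was -0.58 on 5 mM replicate 1, 0.066 to 0.15 on the other 5 mM arrays and 0.020 to 0.16 on the 0 mM arrays. The mean of the ATF4 targets was -0.37 on that array, -0.12 to 0.21 on the other 5 mM arrays and 0.014 to 0.16 on the 0 mM arrays. That low mean includes PHGDH, 4.25 below its mean on the other 7 arrays. The median deviation there was 0.10 for the ATF4 targets and -0.72 for the ER genes. The mean of the sensors and transcription factors was 0.049 there, -0.13 to 0.15 on the other 5 mM arrays and -0.048 to 0.091 on the 0 mM arrays. On 5 mM replicate 1 the ciliated epithelium mean was -2.09, against -0.65 to 0.41 on the other 5 mM arrays and 0.23 to 0.68 on the 0 mM arrays. With all arrays, all 13 epithelium markers and all 8 ciliated markers tested had negative differences between the groups, and all 11 smooth muscle markers had positive ones. None of these passed the adjusted threshold. Without 5 mM replicate 1, 4 epithelium markers were higher and 9 lower, with a median of -0.11, against -1.065 with it. The 8 ciliated markers stayed lower, with a median of -0.40. The 11 smooth muscle markers stayed higher, with a median of 0.45, against 1.1 with that array. The part of tissue makeup in the ER gene values was not tested.

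**Figure D4:**
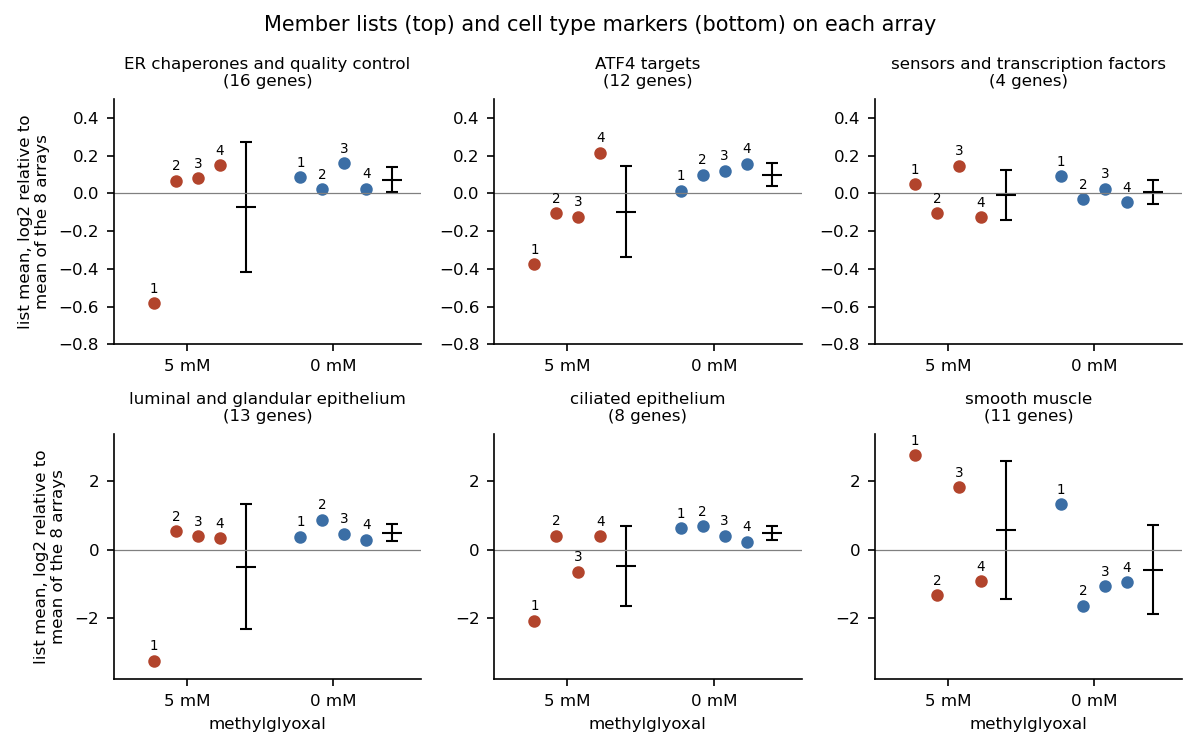
Mean of each gene list on each array (y axis, log2 relative to the mean of the 8 arrays), with 5 mM to the left of 0 mM, replicate numbers beside the points and mean ± SD as bars. On 5 mM replicate 1 the ER gene mean is -0.58, the epithelium marker mean -3.26 and the smooth muscle marker mean 2.78.

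Markers of other cells of the biopsy had list means that overlapped between the groups, and the lists were not tested. Plasma and B cell markers, from cells that secrete protein heavily, had a mean between -1.30 and 0.089 on the 5 mM arrays and between -0.20 and 1.56 on the 0 mM arrays. That list includes MS4A1, a B cell gene well above background on 0 of the 5 mM arrays, against 4 of the 0 mM arrays, which passed the filter through the 0 mM group alone. Macrophage and dendritic cell markers lay between -0.88 and 0.22 on the 5 mM arrays and between -0.64 and 0.79 on the 0 mM arrays. T and NK cell markers lay between -0.88 and -0.012 on the 5 mM arrays and between -0.11 and 0.65 on the 0 mM arrays. Endometrial stroma markers lay between -0.24 and 0.86 on the 5 mM arrays and between -0.40 and 0.039 on the 0 mM arrays, and endothelium markers between -0.33 and 0.17 on the 5 mM arrays and between -0.38 and 0.25 on the 0 mM arrays.

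Further genes of the same pathways, not among the 34, had differences in both directions, from -1.51 to 0.91, and list medians near 0. Of 52 tested genes of ER translocation, degradation and folding, 22 were higher and 30 lower in the 5 mM group, with a median of -0.028. Of 47 genes of the amino acid response and translation control, 29 were higher and 18 lower, with a median of 0.041. Of 15 regulators and outputs of the unfolded protein response, 8 were higher and 7 lower, with a median of 0.0096. In these lists 0 genes had an adjusted or an unadjusted p under 0.05 in limma. Without 5 mM replicate 1 the medians were 0.041, 0.12 and 0.13.

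The genes with the lowest p of the first of these lists were DERL2, which encodes a derlin of the ER exit channel (-0.27 ± 0.19 SE), DNAJC10, which encodes an ER reductase (-0.47 ± 0.35 SE), and SPCS3, which encodes a subunit of signal peptidase (-0.36 ± 0.29 SE). On 5 mM replicate 1 these 3 genes were at 1.26, 0.045 and 0.54, each the lowest of the 8 arrays. In the amino acid list ALDH1L2, a mitochondrial folate enzyme gene, differed by 0.58 ± 0.29 (SE, unadjusted p = 0.084 in limma). In the same list EIF2B1, which encodes a subunit of the exchange factor that phosphorylated eIF2alpha blocks, differed by 0.31 ± 0.17 (SE). CTH, which makes cysteine from cystathionine, had levels of -2.43, -3.37, -2.50 and -3.67 on the 5 mM arrays, against -2.61, -4.15, -3.96 and -4.50 on the 0 mM arrays. The difference of CTH was 0.82 ± 0.46 (SE, unadjusted p = 0.114 in limma), with 0 mM replicate 1 among the 5 mM values.

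SLC38A2, an amino acid transporter gene, was the 1 gene whose groups did not overlap among the 52, 47 and 15 tested in these lists. The share over all tested probes was 1.54%. SLC38A2 was at 3.34, 2.98 and 2.65 on 5 mM replicates 1, 3 and 4, against 2.61 and 2.45 on 0 mM replicates 1 and 4. Its other 3 values were left out for an outlier mark, so this rests on 5 arrays. With 3 against 2 values, groups fail to overlap more readily than with 4 against 4. The SLC38A2 difference was 0.46 ± 0.27 (SE). In the third list CREBRF, which acts on the factor CREB3, differed by 0.22 ± 0.15 (SE), and CREB3 itself, an ER-bound transcription factor, by 0.16 ± 0.17 (SE). CREB3L4, a relative of CREB3, was at -0.68 and 3.29 on 5 mM replicates 1 and 2, against 2.24 to 3.38 on the 0 mM arrays, with 2 values left out, and differed by -1.51 ± 1.05 (SE).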

How the data were processed

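The deposited values used were spot intensities on a linear scale (gProcessedSignal), made by Agilent Feature Extraction 11.5.1.1 with background subtraction and detrending within each array but no scaling across arrays. These steps are given per the file headers, while the submitters' processing notes give version 10.5.1.1. The deposited value table holds log2 values, shifted to the 75th percentile of each array and centred per probe, as its match to the scanner values showed, with column medians between -0.023 and 0.13, and served as an alternative.

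Outlier-marked and control spots were left out, and the spots of a probe were averaged. Log2 ratios of intensity to the 75th percentile of an array were tested with limma 3.58.1 (lmFit and eBayes) in R 4.3.3 for 31108 of 43653 probes, those that stood well above background on 4 or more arrays of 8, with 461 missing values, Benjamini-Hochberg adjustment and a threshold of 0.05. The brightest probe stood for a gene. The code was tested on simulated data. Members were matched by symbol without regard to case, and other lists through a RefSeq table of assembly ARS-UCD2.0, which named 32821 probes. No genome of the array's build was used, so probes were not placed in exons or introns.

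The members and lists were chosen with earlier results of these data known. All members were named, with values per array for HSPA5, XBP1, ATF4, DDIT3, members at an unadjusted p under 0.05 and the 2 of each role with the largest difference and with the highest level, and further ones chosen after their values were seen. Pathway lists gave their 3 genes with the lowest p, and SLC38A2 was added after its values were seen. Replicate pairs within a group correlated at 0.883 to 0.982 across probes, and no array repeated another. The number of arrays limits the precision. The alternatives were a median shift, quantile normalization, normexp (offset 50), other filters, eBayes with trend, array weights, the deposited table, the mean over probes, slide and replicate blocks, single slides and leaving out each cow.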

Additional observations from a re-analysis of the deposited data

Results flagged for a closer look

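In groups of 4 values, 7 of 72 checks found a value far from the other 3 of its group, where chance gives about 1 in 20. Of these, 4 were on 5 mM replicate 1. They were DNAJB9 at 1.68 (others 2.89 to 2.99), MANF at 3.66 (others 4.49 to 4.62), CRELD2 at 1.21 (others 2.75 to 2.92) and the mean of the ER chaperones and quality control genes at -0.58 (others 0.066 to 0.15). That mean includes DNAJB9, MANF and CRELD2, so the checks are not independent, and 7 of 72 is no test against chance. EIF2AK3 was at 1.71 on 5 mM replicate 3, with the other 5 mM values between 1.80 and 1.81, a narrow range. SDF2L1 was at -0.75 on 0 mM replicate 4, with the other 0 mM values between -0.35 and -0.27. DDIT4 was at 3.93 on 0 mM replicate 3, with the other 0 mM values between 3.48 and 3.54.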

How the results depend on the processing

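In the 19 alternatives to the reported fit over groups of cows, 0 members passed the adjusted threshold in limma, and the smallest adjusted p was 0.667. Single slides are not counted among these. Slide 1, with 1 array of each group, allowed no test, and fits within slides are given as differences alone. Over these 19, 63 of 605 member differences changed sign and 13 members kept theirs in each. At an unadjusted p under 0.05 there were 0 members with normexp, 2 with slide as a block and 0 to 2 without 1 cow, against 1 reported. The 0 came without 5 mM replicate 1 and without 0 mM replicate 2, 3 or 4, and the 2 without 5 mM replicate 2. The share over all tested probes is given for the reported fit alone, at 1.91%. These counts therefore have no background of their own and are not read as a result. The median of the sensors and transcription factors was 0.0997 with the mean over probes, in which ATF4 was at 1.00, since the arrays without its brightest probe there average the dimmer ones alone. The ER chaperone median was -0.756 within slide 1 and 0.109 within slide 3, and that of ER translocation, degradation and folding was -0.290 within slide 1. Without 1 cow the ER chaperone median ranged from -0.29 to 0.040, positive without 5 mM replicate 1, and with array weights, which keep all cows, it was 0.016, with 16 of the 32 members higher and 16 lower, and 5 mM replicate 1 had a weight of 0.19. The amino acid response median ranged from 0.016 to 0.117 without 1 cow, the highest again without 5 mM replicate 1. With a replicate block 1 member had an unadjusted p under 0.05 and the ER chaperone median was -0.141. Deviations of arrays of the same number correlated at 0.40, 0.36, -0.30 and 0.31 across probes, so the numbers were not taken as pairs. The positive correlations were between arrays on the same slide and the negative one between slides, so number and slide are confounded in them. Arrays of unlike number correlated at 0.295 and -0.071 on the same slide, and at -0.489 to 0.325 on different slides. The cause of these shifts was not tested. For CHAC1 the signal stood well above background on 2 of the 5 mM and 3 of the 0 mM arrays. The same counts were 3 and 4 for PPP1R15A, 1 and 1 for ERN1, and 4 and 4 for TRIB3. The TRIB3 difference was -0.30 with normexp, and why it changed was not tested.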
